A study of Rattus norvegicus with 6 samples.

Results

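SOX transcription factors of progenitors and of the oligodendrocyte lineage were examined in cultured rat oligodendrocyte precursor cells (OPCs), the dividing cells from which oligodendrocytes form. The list held 10 genes, Sox2, Sox3, Sox4, Sox5, Sox6, Sox8, Sox9, Sox10, Sox11 and Sox13, chosen by gene name, and 8 of them had a row under that name among the 32883 genes of the deposited count table. Sox3 was listed there under the clone name AABR07041949.1 as a pseudogene. It was recognised by the NCBI gene record in its description, and its values are given separately as the Sox3 row. No row carried the name Sox4, which was not analysed here.

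The cultures came from the cerebral cortices of newborn (P0) Sprague Dawley rats, grown as mixed cells for 7 days in serum and then enriched for OPCs by shaking. The cells then received 5 µM ZJU-37, an inhibitor of the kinase RIPK1, or the same volume of its solvent DMSO, for 36 h according to the sample labels (the Methods give a shorter time). Each group had 3 libraries of poly-A RNA, numbered 1 to 3. The labels name 2 cortices as the source and do not say which library came from which animal, so p-values measure the spread between these libraries, which may be technical. The comparison asks which genes differ in expression between OPCs exposed to the inhibitor and OPCs exposed to the solvent.

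SOX proteins bind DNA through an HMG box, bend it, and act together with partner factors bound nearby. In the oligodendrocyte lineage, the SoxE proteins SOX9, SOX10 and SOX8 serve successive roles: SOX9 in the specification of glial cells, and SOX10, with SOX8, in the activation of myelin genes. SoxD proteins (SOX5, SOX6, SOX13) lack an activation domain of their own and can oppose SoxE proteins in precursors, SoxB1 proteins (SOX2, SOX3) mark neural progenitors and persist in OPCs, and SoxC proteins (SOX4, SOX11) belong to immature neural cells.

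The libraries held 13935865 to 18754529 counts with DMSO and 17769843 to 24097927 with ZJU-37, so that 3 counts equal 0.124 to 0.215 CPM, the number of counts scaled to a fixed library total. Levels below are CPM scaled by the trimmed mean of M-values (TMM), as mean ± SD of 3 libraries. Of 14670 genes tested with edgeR, 2201 had a Benjamini-Hochberg adjusted p under 0.05 and are called changed below. The labelled cell type was checked with marker lists. Of 9 OPC markers, 8 were found, with a summed level of 3187 to 3803 CPM with DMSO and 3122 to 4359 CPM with ZJU-37, and 3 were called higher and 4 lower. Markers of mature oligodendrocytes summed to 8484 to 18532 CPM with DMSO and 3752 to 8594 CPM with ZJU-37, with 0 of 9 called by edgeR (4 at an unadjusted p under 0.05, all lower, and 4 called lower by DESeq2 and also with the replicate number as a block), and those of premyelinating oligodendrocytes to 3369 to 4351 CPM and 1017 to 1250 CPM, with 6 of 6 called lower. Microglial markers reached 1944 to 3353 CPM with DMSO and 1419 to 2974 CPM with ZJU-37, neuronal markers 552 to 860 CPM and 501 to 773 CPM, and vascular and fibroblast markers 52.7 to 92.5 CPM and 31.3 to 71.7 CPM with Cldn5 at 0. The cultures thus held RNA of other glial stages and cell types besides OPCs. In such bulk RNA, fewer cells of a type and less RNA per cell cannot be told apart, and the part of cell composition in the results below was not tested.

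All 8 SOX genes with a row under their name passed the filter on low counts. With ZJU-37, Sox9 and Sox11 rose and Sox8 and Sox10 fell, whereas Sox2, Sox5, Sox6 and Sox13 did not pass the test. The 4 called genes are to be read beside the 15.0% of all tested genes that were called, of which 9.43% of all genes were higher and 5.58% lower. DMSO and ZJU-37 libraries did not overlap for 6 of the 8 genes, against 35.2% of all tested genes. The median log2 fold change of the 8 genes was -0.13, and that of all tested genes was -0.03. With the replicate number as a block, 7 of the 8 were called, 3 higher and 4 lower, against 32.1% of all tested genes.

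**Figure D1:**
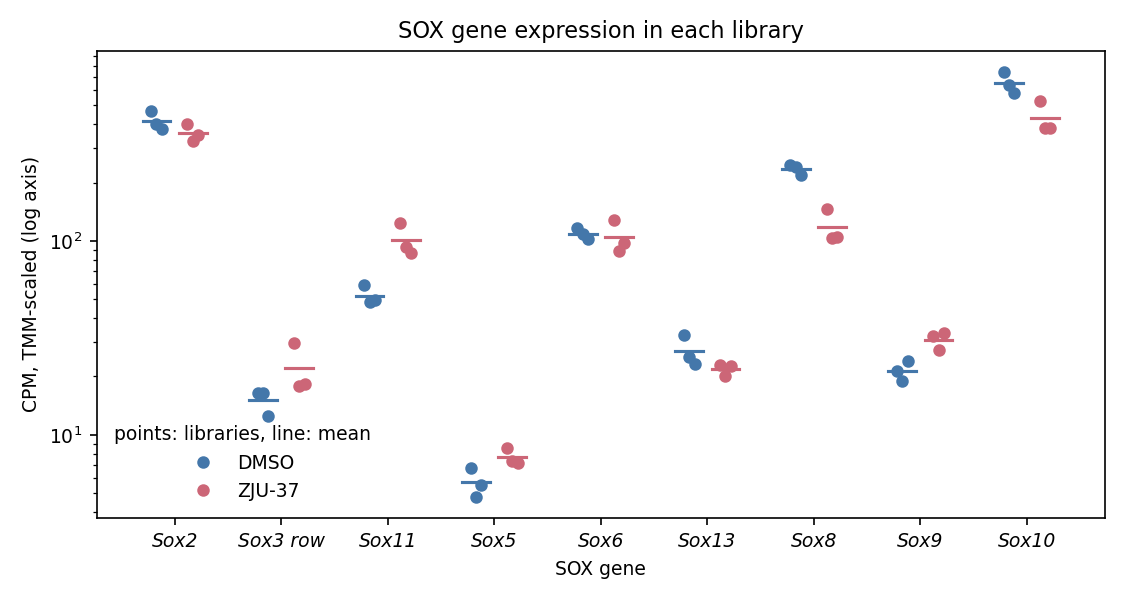
TMM-scaled CPM (log axis) of each SOX gene in each library, with 3 points for DMSO, 3 points for ZJU-37 and a line at each group's mean. Sox10 lies at 583 to 744 CPM with DMSO and 383 to 524 CPM with ZJU-37, Sox11 at 48.2 to 59.0 CPM and 87.1 to 124 CPM, and the points of Sox2 and Sox6 overlap between the groups.

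The promoter windows of a called SOX gene, of a SOX gene that did not pass the test, and of target genes taken up further on are shown here, since SOX genes are regulated through such regions and SOX proteins act on them. RefSeq windows of the 250 bases before the transcription start (build GRCr8) were at hand for 5 of the 10 listed SOX genes, Sox2, Sox3, Sox6, Sox11 and Sox13. The motifs were chosen after the sequences had been seen, and each was searched on both strands. In the windows of Sox11 (chr6:49738795-49739044, minus strand) and Sox2 (chr2:119464881-119465130, plus strand), capitals mark CCAAT, the core bound by the factor NF-Y, which is written ATTGG where it lies on the opposite strand.
Sox11: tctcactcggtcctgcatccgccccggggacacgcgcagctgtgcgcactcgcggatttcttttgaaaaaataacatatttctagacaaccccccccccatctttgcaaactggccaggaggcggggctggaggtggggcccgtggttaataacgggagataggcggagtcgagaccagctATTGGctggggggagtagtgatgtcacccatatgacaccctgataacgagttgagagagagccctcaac
Sox2: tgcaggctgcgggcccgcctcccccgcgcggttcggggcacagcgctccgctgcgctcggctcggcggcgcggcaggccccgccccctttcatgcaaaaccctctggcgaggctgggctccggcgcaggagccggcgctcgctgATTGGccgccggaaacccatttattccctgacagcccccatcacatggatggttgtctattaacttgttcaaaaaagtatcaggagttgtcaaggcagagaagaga

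CCAAT occurred in the windows of Sox2, Sox3, Sox6 and Sox11 and in 34.0% of all 33469 RefSeq rat windows of this length. The window of Sox13 did not hold these letters. A SOX core, here ACAAT or ACAAAG, was found in the window of 1 of the 5 SOX genes, Sox6, and in 40.6% of all windows. The windows of Sox2 and Sox11 had a GC content of 64.4% and 56.8%, beside a median of 51.2% over all windows. The matches describe letters within the windows and were not tested for binding.

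Sox10 (ENSRNOG00000011305) encodes the SoxE factor that drives the myelin programme and was the most abundant of the SOX genes per length in DMSO. The table places it on the minus strand of chromosome 7 from 120393254 to 120403523, in coordinates whose build is not given in the sources used here, as a protein-coding gene. Read in the order of the replicate numbers, as for all genes below, the DMSO libraries showed levels of 744, 638 and 583 CPM and the ZJU-37 libraries 524, 383 and 384 CPM. The groups did not overlap, and within each numbered pair the ZJU-37 library was the lower one. The mean fell from 655 ± 81.8 to 430 ± 81.0 CPM (log2 fold change -0.61, SE 0.15, edgeR adjusted p = 0.0430). This call was close to the threshold. It was lost when DMSO replicate 1, 2 or 3 or ZJU-37 replicate 2 or 3 was left out, with log2 fold changes from -0.75 to -0.50 over the 6 leave-outs and adjusted p up to 0.155, and with library totals in place of TMM (adjusted p = 0.0667). The block left the log2 fold change at -0.61, with an adjusted p of 3.59e-05. The gene AC096473.3 overlaps Sox10 on the opposite strand and had 24 counts in all 6 libraries together.

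Sox8 (ENSRNOG00000018841), the close relative of Sox10 with partly shared functions in myelination, showed the larger fall of both. Its span is 14932348 to 14937336 of chromosome 10, minus strand. The DMSO libraries held 247, 241 and 218 CPM and the ZJU-37 libraries 147, 104 and 105 CPM. All DMSO values lay above all ZJU-37 values. The mean was 235 ± 15.0 CPM with DMSO and 119 ± 24.3 CPM with ZJU-37 (log2 fold change -0.99, SE 0.14, edgeR adjusted p = 0.00550). The call held in each of the 6 leave-outs, with adjusted p of at most 0.0291. Beside the falls of Sox10 and Sox8, the 6 premyelinating oligodendrocyte markers had a median log2 fold change of -2.26 and the 9 mature ones of -0.79, and their part in these falls was not tested.

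Sox9 (ENSRNOG00000002607) acts earlier, in the specification of glia, and is kept in astrocytes. The gene lies on the plus strand of chromosome 10 from 101288489 to 101293379. In the DMSO libraries it stood at 21.4, 19.0 and 23.9 CPM and in the ZJU-37 libraries at 32.3, 27.3 and 33.3 CPM, without overlap. Unlike Sox8 and Sox10, it rose with ZJU-37, by 0.53 on the log2 scale (SE 0.12, edgeR adjusted p = 0.0285), and the differences within the numbered pairs were 0.59, 0.52 and 0.48. The adjusted p was over 0.05 without DMSO replicate 1 (0.0812), DMSO replicate 2 (0.0919), ZJU-37 replicate 1 (0.0659) or ZJU-37 replicate 3 (0.0989), and 5.51e-04 with the replicate block. Astrocyte markers moved beside it as follows. Of 9 such genes 8 were tested, and 0 were called higher and 1 lower, Aldoc (log2 fold change -0.86). Their summed level ran from 958 to 1561 CPM with DMSO and from 834 to 1273 CPM with ZJU-37, Gjb6 was under 1 CPM in every library, and Gfap had a log2 fold change of -0.75 (adjusted p = 0.214, and 1.55e-04 with the replicate block). DESeq2 called 0 astrocyte markers higher and 1 lower, the replicate block 0 higher and 3 lower, and at an unadjusted p under 0.05 the edgeR test gave 0 higher.

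Sox11 (ENSRNOG00000030034), the SoxC gene of immature neural cells, had the largest rise among the SOX genes tested. The row spans 46629974 to 46631983 on the minus strand of chromosome 6. It was measured at 59.0, 48.2 and 49.3 CPM with DMSO and at 124, 92.6 and 87.1 CPM with ZJU-37. Every ZJU-37 library was above every DMSO library. The mean went from 52.2 ± 5.91 to 101 ± 20.2 CPM (log2 fold change 0.96, SE 0.15, edgeR adjusted p = 0.00856), and the call held in each leave-out, with adjusted p of at most 0.0425. Markers of neural progenitors, another kind of immature cell, summed to 543 to 638 CPM with DMSO and 748 to 851 CPM with ZJU-37. Of 6 such markers, 2 were called higher, Nes with a log2 fold change of 1.25 and Fabp7 with 0.43. Of 7 neuronal markers, 0 were called by edgeR (2 at an unadjusted p under 0.05), 1 was called lower by DESeq2 and 3 were called lower with the replicate block.

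Sox2 (ENSRNOG00000012199), the SoxB1 factor of neural progenitors that OPCs keep, did not pass the test. Its span is 121165137 to 121167545 of chromosome 2, plus strand. The DMSO libraries had 470, 402 and 380 CPM of it, the ZJU-37 libraries 401, 329 and 353 CPM. The ranges overlapped, since ZJU-37 replicate 1 lay above DMSO replicate 3. The log2 fold change was -0.21 (SE 0.11, edgeR adjusted p = 0.277). Each ZJU-37 library was below the DMSO library of its own number, and with the replicate block the gene was called lower (log2 fold change -0.21, adjusted p = 0.0160). In the fit without the block, leaving out DMSO replicate 1 or ZJU-37 replicate 2 brought the log2 fold change to -0.12.

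The Sox3 row (ENSRNOG00000058173, chromosome X from 144035883 to 144037294, minus strand) belongs to another SoxB1 gene, which overlaps in function with Sox2. It showed 16.4, 16.4 and 12.5 CPM with DMSO and 29.7, 17.9 and 18.4 CPM with ZJU-37. ZJU-37 replicate 1 stood well above the other libraries of its group. The groups did not overlap, but the log2 fold change of 0.54 (SE 0.23) did not pass (edgeR adjusted p = 0.180). It was 0.51 with an adjusted p of 0.0223 under the replicate block, and 0.28 without the block when ZJU-37 replicate 1 was left out.

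Of the SoxD genes, which can restrain differentiation of OPCs, none passed the test without the block. Sox6 (ENSRNOG00000020514, chromosome 1 from 185673177 to 186182829, plus strand) was the most abundant of them, at 116, 108 and 103 CPM with DMSO and 128, 88.9 and 97.6 CPM with ZJU-37. The ZJU-37 libraries lay on both sides of the DMSO libraries. Its log2 fold change was -0.06 (SE 0.14, edgeR adjusted p = 0.835), and its sign was not fixed, since it was 0.080 without ZJU-37 replicate 2 and 0.022 without ZJU-37 replicate 3.

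Sox5 (ENSRNOG00000027869, chromosome 4 from 178066165 to 178441547, minus strand) was the scarcest SOX gene of the list, with 85 to 173 counts per library. It stood at 6.72, 4.80 and 5.52 CPM with DMSO and 8.54, 7.32 and 7.15 CPM with ZJU-37, so the groups did not overlap. The log2 fold change was 0.44 (SE 0.17, edgeR adjusted p = 0.155), and the adjusted p with the replicate block was 0.0409. For Sox13 (ENSRNOG00000028353, chromosome 13 from 50434702 to 50479657, plus strand) the DMSO libraries held 32.8, 25.3 and 23.3 CPM and the ZJU-37 libraries 23.0, 20.0 and 22.5 CPM. The gap between the groups was narrow, and DMSO replicate 1 was the highest library. Its log2 fold change was -0.31 (SE 0.14, edgeR adjusted p = 0.213), and it was called lower with the replicate block (adjusted p = 0.0465). Without DMSO replicate 1 and without the block its log2 fold change was -0.15.

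Of the 9 SOX genes outside the list that were looked up, Sox1 had no row under its name and was not analysed here, and 8 were found. Only 3 of these had enough counts to be tested, and edgeR called 0 of them, as it did with the replicate block and as DESeq2 did, with 0 at an unadjusted p under 0.05. Sox12, the third SoxC gene, was at 56.8 ± 7.29 CPM with DMSO and 59.6 ± 8.97 CPM with ZJU-37 (log2 fold change 0.07, adjusted p = 0.782), beside the rise of Sox11. Sox7 had a log2 fold change of 0.10 (adjusted p = 0.703) and Sox21, a SoxB2 gene listed as a pseudogene, one of -0.22 (adjusted p = 0.461). Sox15, Sox18 and Sox30 were under 1 CPM in every library, and reads of Sox15 may be shared with the overlapping gene Mpdu1. Sox14 and Sox17 had 0 counts in each library, which allows up to 0.124 to 0.215 CPM by counting error alone.

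**Figure D2:**
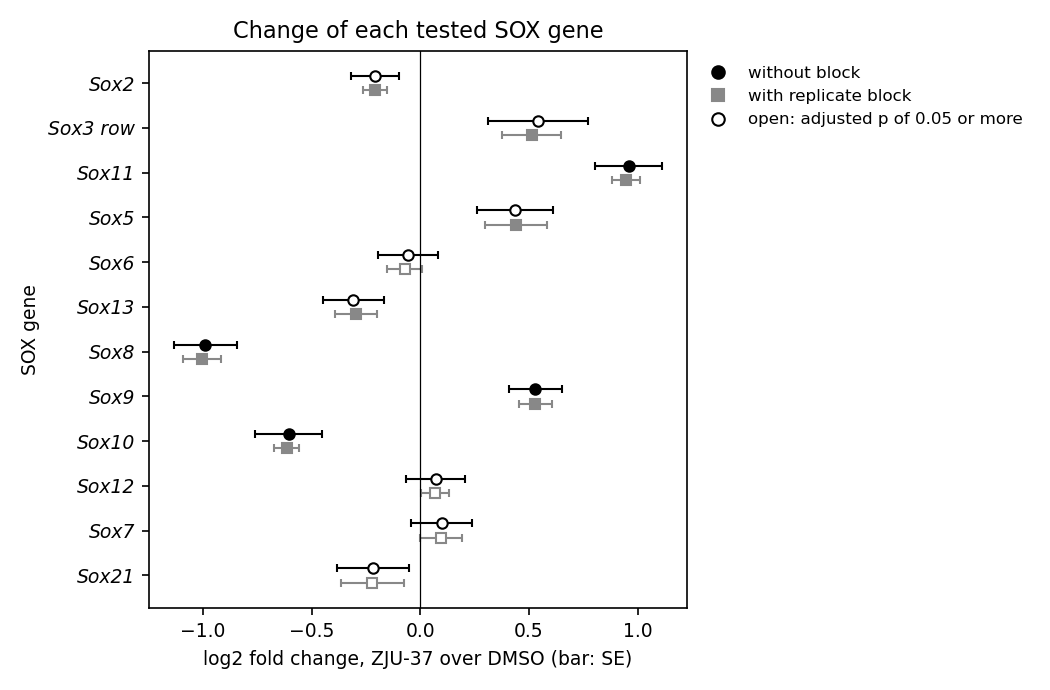
Log2 fold change of ZJU-37 over DMSO with its SE (bars) for each tested SOX gene, from the edgeR fit without (circles) and with (squares) the replicate block, filled where the adjusted p was under 0.05. Sox8 lies at -0.99 and Sox11 at 0.96, and the Sox3 row, Sox2, Sox5 and Sox13 are filled with the block alone.

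Levels of different genes were compared as CPM per kilobase of the gene length in the table. The order below covers the listed genes alone. Sox12, outside the list, stood at 55.7 ± 7.15 CPM per kilobase with DMSO and 58.5 ± 8.80 with ZJU-37. With DMSO, each Sox12 library lay above those of Sox6 and Sox11. In DMSO, Sox10 came first with 216 ± 27.0 CPM per kilobase, followed by Sox2 with 180 ± 20.2, and the libraries of these neighbours overlapped. The next were Sox8 with 72.5 ± 4.64, Sox6 with 35.2 ± 2.19, Sox11 with 25.9 ± 2.94, the Sox3 row with 10.8 ± 1.64, Sox13 with 6.61 ± 1.22, Sox9 with 6.26 ± 0.718 and Sox5 with 1.64 ± 0.280. Sox13 and Sox9 were neighbours within their spread. With ZJU-37, Sox2 led with 155 ± 15.8 CPM per kilobase, within the spread of Sox10 at 142 ± 26.8. Sox11 came next with 50.4 ± 10.0, before Sox8 with 36.5 ± 7.49 and Sox6 with 33.9 ± 6.69, and the libraries of Sox11 and Sox8, and those of Sox8 and Sox6, overlapped. The Sox3 row followed with 15.7 ± 4.79, then Sox9 with 9.05 ± 0.948, Sox13 with 5.33 ± 0.392 and Sox5 with 2.21 ± 0.219.

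Ratios within a library need no scaling between libraries and are given as a description, since the genes had been tested above. Per length, the ratio of Sox2 to Sox10 was 0.824, 0.821 and 0.850 in the DMSO libraries and 0.998, 1.12 and 1.20 in the ZJU-37 libraries. Sox10 thus exceeded Sox2 in each DMSO library, and Sox2 exceeded Sox10 in ZJU-37 replicates 2 and 3. Within the SoxE group, the ratio of Sox8 to Sox10 went from 0.337 ± 0.0237 to 0.257 ± 0.00421, and that of Sox9 to Sox10 from 0.0294 ± 0.00601 to 0.0648 ± 0.0112. The ratio of Sox11 to Sox10 was 0.120 ± 0.00688 with DMSO and 0.355 ± 0.0118 with ZJU-37, the widest shift of these ratios at 2.95-fold. None of these ratios overlapped between the groups. Each has the called gene Sox10 as its denominator, so this is not separate evidence beside the changes of the single genes.

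Summed over the 9 listed genes with the Sox3 row included, SOX transcripts amounted to 555 ± 58.5 CPM per kilobase with DMSO and 451 ± 71.6 with ZJU-37. Sox12, which lies outside the list, and Sox4, which had no row under its name, do not enter this sum or its shares. SoxE genes made up 53.0, 53.6 and 52.9% of this sum in the DMSO libraries and 42.7, 41.3 and 40.6% in the ZJU-37 libraries. The share of Sox11 was 4.68 ± 0.227% with DMSO and 11.2 ± 0.656% with ZJU-37. SoxB1 genes took 34.3 ± 0.262% and 38.1 ± 1.64%, and SoxD genes 7.85 ± 0.175% and 9.18 ± 0.273%. A share rises when the others fall, and the gain of SoxB1 and SoxD in share stands beside sums per length that were 190 ± 21.4 and 171 ± 20.4 CPM per kilobase for SoxB1 and 43.5 ± 3.60 and 41.4 ± 7.20 for SoxD.

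**Figure D3:**
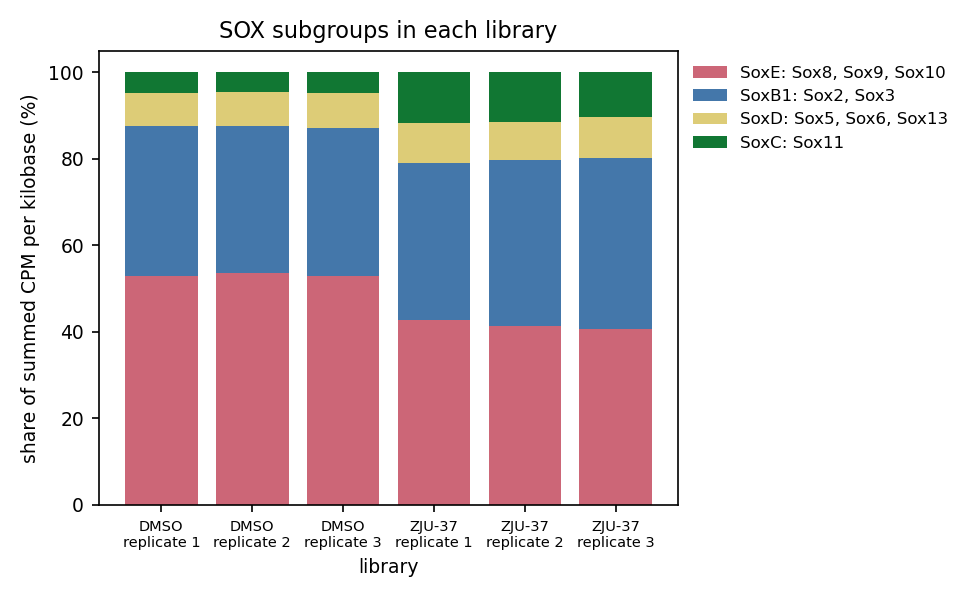
Share (%) of the summed CPM per kilobase of 9 SOX genes that fell to SoxE, SoxB1, SoxD and SoxC (Sox11) in each of the 6 libraries, as stacked bars. Sox12 is not part of the sum. The SoxE segment covers 52.9 to 53.6% in the DMSO libraries and 40.6 to 42.7% in the ZJU-37 libraries.

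Genes known as direct targets of SOX10 in oligodendrocytes, Schwann cells or melanocytes were described next, from a list of 21 genes, all of which were found and tested. Of these, 6 were called lower and 2 higher, beside 5.58% lower and 9.43% higher among all tested genes. Their median log2 fold change was -0.48, and that of all tested genes was -0.03. The block called 9 lower and 6 higher, 15 in all, against 32.1% of all tested genes. The 6 lower genes were Dusp15, Dct, Myrf, Cnp, Prx and Mitf, and the 2 higher ones were Egr2 and Pdgfra.

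Myrf, the transcription factor that switches on myelin genes together with SOX10, was at 884, 768 and 629 CPM with DMSO and 219, 294 and 195 CPM with ZJU-37, without overlap. Its log2 fold change was -1.69 (SE 0.19, edgeR adjusted p = 0.00208). Dusp15, a phosphatase of differentiating oligodendrocytes, was at 311, 258 and 197 CPM with DMSO and 52.1, 72.5 and 37.2 CPM with ZJU-37. All ZJU-37 libraries were below all DMSO libraries, with a log2 fold change of -2.24 (SE 0.28, edgeR adjusted p = 0.00318). Cnp, an enzyme of myelin, fell from 2845 ± 530.1 to 1108 ± 188 CPM (log2 fold change -1.36, SE 0.18, edgeR adjusted p = 0.00362). Prx, a protein of Schwann cell myelin, fell from 16.4 ± 1.09 to 6.47 ± 1.17 CPM (log2 fold change -1.33, SE 0.16, edgeR adjusted p = 0.00213).

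The SOX10 targets of pigment cells also included called genes. Mitf, the master regulator of melanocytes, was at 39.3 ± 1.76 CPM with DMSO and 29.8 ± 3.31 CPM with ZJU-37 (log2 fold change -0.40, adjusted p = 0.0378), a call that was lost in each of the 6 leave-outs. Dct, a melanin enzyme, was near the limit of detection in both groups, at 0.955 ± 0.325 CPM and 0.245 ± 0.110 CPM (log2 fold change -1.95, adjusted p = 0.0402). That call held in 1 of the 6 leave-outs, the one without DMSO replicate 3.

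The myelin genes Mbp and Mag did not pass the edgeR test. Mbp stood at 11422, 7694 and 5208 CPM in the DMSO libraries and 4410, 5203 and 2275 CPM in the ZJU-37 libraries. The spread within each group was wide, and DMSO replicate 3 lay just above ZJU-37 replicate 2. The log2 fold changes were -1.03 for Mbp (SE 0.39, adjusted p = 0.136) and -1.00 for Mag (adjusted p = 0.154). With the replicate block, Mag (adjusted p = 0.0399) was called lower and Mbp was not (adjusted p = 0.0527), whereas DESeq2 called both lower, with adjusted p of 0.0167 for Mbp and 0.0273 for Mag.

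Egr2, the zinc finger factor of Schwann cell myelination, rose, against the direction of Sox10. It was measured at 4.75, 5.82 and 3.77 CPM with DMSO and at 15.4, 25.0 and 22.6 CPM with ZJU-37, and the groups were far apart (log2 fold change 2.14, SE 0.24, edgeR adjusted p = 0.00177). Pdgfra, the receptor for the growth factor that keeps OPCs dividing, rose by 1.10 on the log2 scale (SE 0.21, edgeR adjusted p = 0.0182), a call lost without DMSO replicate 2 (adjusted p = 0.0775) or DMSO replicate 3 (adjusted p = 0.0693). Erbb3, the neuregulin receptor, and Sufu, an inhibitor of Hedgehog signalling, had log2 fold changes of 0.18 and 0.11 and were not called. Under the replicate block Erbb3 was called higher (log2 fold change 0.17, adjusted p = 0.0476) and Sufu was not (adjusted p = 0.391).

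Among the SOX10 targets, 16 of 21 had a RefSeq promoter window, and 9 of these held a SOX core. A gene counted if any of its windows held a core, whereas the share of all windows is per window. Mbp had 2 windows and counted through window 2 alone. Of the 7 called targets with a window, 4 held a SOX core, Cnp, Mitf, Dct and Dusp15, beside 40.6% of all windows. ACAAT alone was present in 30.0% and ACAAAG alone in 16.3% of all windows. The windows of Cnp (chr10:86011254-86011503, plus strand) and Dusp15 (chr3:161879251-161879500, minus strand) are printed as called targets that hold ACAAAG. Dct, which holds it too, was near the limit of detection and is not printed. Prx, Egr2 and Pdgfra, the other called targets with a window, held no SOX core. Capitals mark ACAAAG, written CTTTGT where it lies on the opposite strand.
Cnp: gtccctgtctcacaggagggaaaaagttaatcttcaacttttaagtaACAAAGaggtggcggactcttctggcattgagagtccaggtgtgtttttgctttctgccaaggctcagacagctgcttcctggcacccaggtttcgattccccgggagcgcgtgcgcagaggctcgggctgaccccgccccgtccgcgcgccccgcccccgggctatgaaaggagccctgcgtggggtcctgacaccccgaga
Dusp15: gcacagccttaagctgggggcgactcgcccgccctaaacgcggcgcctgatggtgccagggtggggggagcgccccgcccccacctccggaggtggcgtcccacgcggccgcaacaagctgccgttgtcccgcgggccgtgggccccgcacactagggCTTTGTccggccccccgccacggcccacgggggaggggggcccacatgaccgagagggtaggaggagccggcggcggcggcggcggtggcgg

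Partner and regulator genes of SOX proteins in neural cells formed a list of 30 genes, of which 29 were found and tested. Of these, 7 were called higher and 4 lower, beside 9.43% and 5.58% of all tested genes, with a median log2 fold change of 0.04. The block called 11 higher and 6 lower, 17 in all, against 32.1% of all tested genes. Among the factors that promote differentiation, Nkx2-2, a homeodomain factor that acts with SOX10 on myelin genes, was at 198, 198 and 185 CPM with DMSO and 68.1, 54.0 and 52.4 CPM with ZJU-37. The groups lay far apart (log2 fold change -1.74, SE 0.11, edgeR adjusted p = 3.20e-04). Tcf7l2, an HMG box effector of Wnt signalling, was at 109, 89.0 and 78.5 CPM with DMSO and 22.3, 24.4 and 20.3 CPM with ZJU-37. It had the largest fall of the partner list (log2 fold change -2.05, SE 0.14, edgeR adjusted p = 3.80e-04).

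Zfp488, a zinc finger protein of differentiating oligodendrocytes, fell from 52.9 ± 11.2 to 19.3 ± 3.50 CPM (log2 fold change -1.45, SE 0.19, edgeR adjusted p = 0.00389). Zeb2, a repressor that helps OPCs to mature, fell from 262 ± 27.8 to 160 ± 13.2 CPM (log2 fold change -0.72, SE 0.10, edgeR adjusted p = 0.00431). The basic helix-loop-helix factors of the lineage differed from each other. Olig1 rose from 809 ± 59.0 to 1259 ± 189 CPM (log2 fold change 0.64, edgeR adjusted p = 0.0150), a call lost without DMSO replicate 2 (adjusted p = 0.0619) or DMSO replicate 3 (adjusted p = 0.0614). Olig2, which induces Sox10 in the lineage, was at 502 ± 40.5 and 477 ± 66.3 CPM (log2 fold change -0.07, adjusted p = 0.737).

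The listed POU factors of class III, Pou3f1, Pou3f2 and Pou3f3, which bind DNA beside SOX proteins, were called higher. Pou3f1 stood at 5.77, 5.08 and 5.47 CPM with DMSO and 18.7, 18.1 and 17.7 CPM with ZJU-37, and the 3 libraries of each group were close together. It had the largest rise of the partner list (log2 fold change 1.74, SE 0.11, edgeR adjusted p = 3.20e-04). Pou3f3 rose by 0.77 on the log2 scale (SE 0.09, edgeR adjusted p = 0.00212). Pou3f2 rose by 0.70 (SE 0.14, edgeR adjusted p = 0.0161), a call lost without DMSO replicate 1 (adjusted p = 0.0607) or DMSO replicate 2 (adjusted p = 0.0615). Of the nuclear factor I genes, which act downstream of SOX9 in glia, Nfib rose by 0.74 (SE 0.14, edgeR adjusted p = 0.0139) and Nfia by 0.52 (SE 0.13, edgeR adjusted p = 0.0425). The call of Nfia was lost without DMSO replicate 2, DMSO replicate 3, ZJU-37 replicate 2 or ZJU-37 replicate 3, with adjusted p from 0.0508 to 0.137. Nfix had a log2 fold change of 0.43 (adjusted p = 0.0811) and was called higher with the replicate block.

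**Figure D4:**
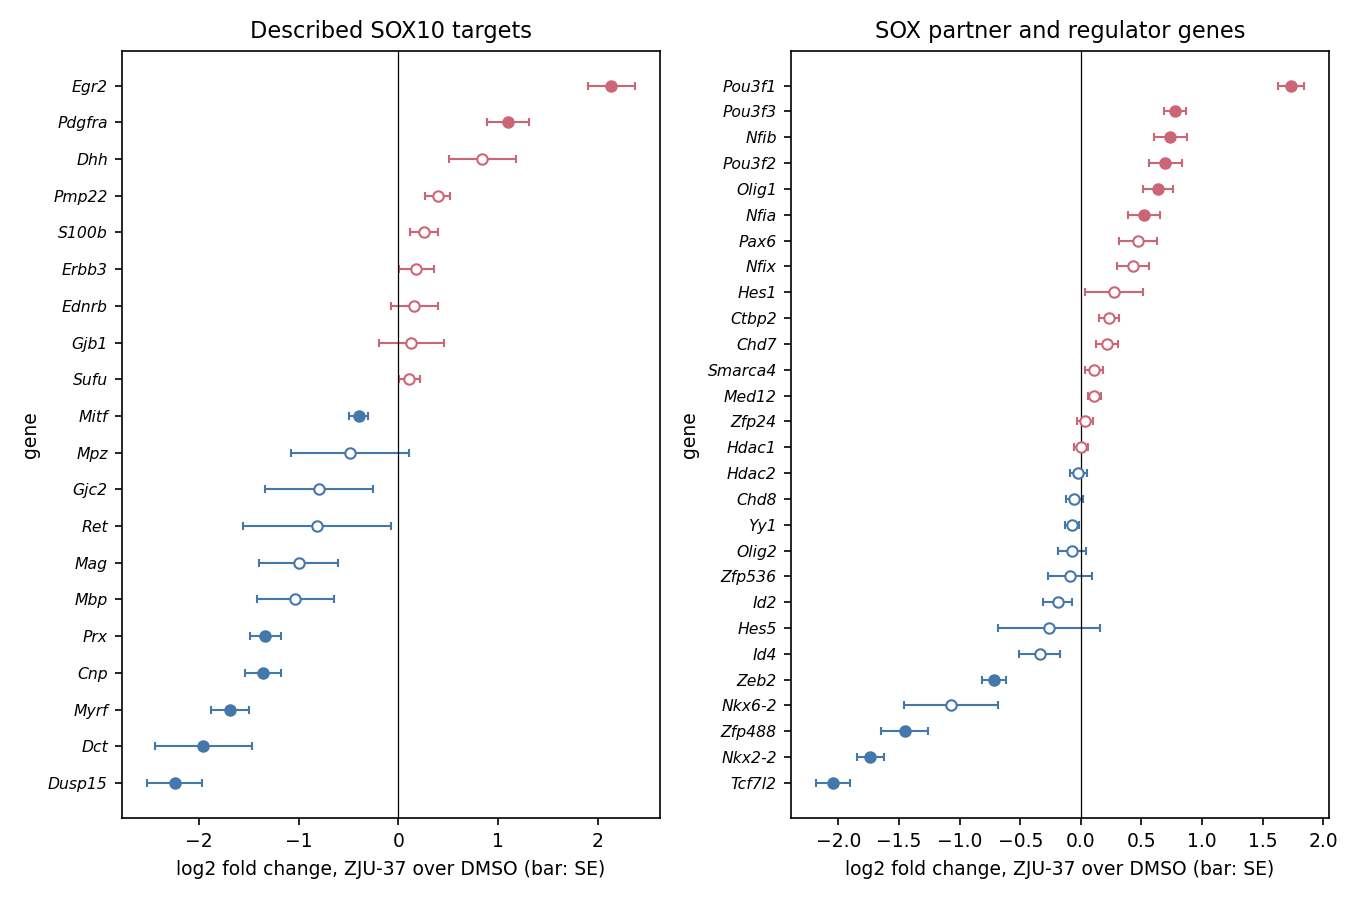
Log2 fold change of ZJU-37 over DMSO with its SE (bars) for SOX10 target genes (left) and SOX partner genes (right), filled where the edgeR adjusted p was under 0.05. The targets run from Dusp15 at -2.24 to Egr2 at 2.14 and the partners from Tcf7l2 at -2.05 to Pou3f1 at 1.74.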

How the data were processed

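Poly-A RNA was sequenced from 3 DMSO and 3 ZJU-37 libraries of rat OPCs. The authors deposited 1 table with raw counts per gene (unit: counts, not normalized) and the gene length in bases, and the submitters' processing notes name HISAT2 2.0.5, StringTie 1.3.3b and featureCounts 1.5.0. The genome build is not given in the sources used here. The table also holds FPKM values and the authors' own group means, fold changes and p-values, which were not used. Library totals are given above, and limits of detection cover counting error only. Whether reads were counted by strand is not stated.

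The quasi-likelihood test of edgeR 4.0.16 (R 4.3.3; robust glmQLFit, then glmQLFTest) compared the groups over all 6 libraries without covariates, after filterByExpr had removed genes with low counts and TMM factors of 0.981 to 1.04 had been applied. Adjusted p-values are by Benjamini-Hochberg over all 14670 tested genes. The fits were tested on simulated counts that held no effect of the replicate number. The SOX genes, the target, partner and marker lists and the tests were chosen with earlier results of these data known. The rule for naming genes covered all listed SOX genes, every other tested SOX gene, the called genes of the target and partner lists and the largest change in each direction of each list. Other named genes were chosen after their values were seen. Some genes of the lists enter the counts but are not reported here by name. Nfix was matched through an older name. Dct was listed under a clone name and, like Sox3, was recognised by the NCBI gene record in its description.

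The labels number the libraries of both groups 1 to 3. Deviations from the group means correlated at r = 0.39, 0.31 and 0.33 across genes for libraries of the same number and at -0.27 to -0.01 for the others, so the numbers were taken to pair the libraries. The labels do not state a pairing. The block was thus chosen from the same data that its p-values test. No library pair agreed within sampling noise (chi-square per degree of freedom of at least 11.9). Alternatives were DESeq2 1.42.0 (the study used an earlier version of this tool), other scalings, other filters on low counts, the replicate block and leaving out each library in turn. Promoter windows came from RefSeq, build GRCr8.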

Additional observations from a re-analysis of the deposited data

How the results depend on the processing

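With the replicate block, 4705 genes were called in place of 2201, with 50.4% of them higher in place of 62.8%. The block called 7 SOX genes in place of 4, 15 SOX10 targets in place of 8 and 17 SOX partners in place of 11. Leaving out 1 library in turn gave 1306 to 1927 called genes, with the lowest counts without DMSO replicate 2 (1306) and ZJU-37 replicate 3 (1351). It gave 2 to 3 SOX genes, with 2 without DMSO replicate 1, DMSO replicate 2 or ZJU-37 replicate 3, and 5 to 7 SOX10 targets, with 5 without DMSO replicate 2. Over the same leave-outs the log2 fold change ran from -0.21 to 0.0803 for Sox6, from -0.0310 to 0.19 for Sox12 and from -0.17 to 0.0160 for Olig2, so the sign of these 3 genes was not fixed. DESeq2 called 2588 genes and 4 SOX genes, and library totals alone 2116 genes and 3 SOX genes. The changes of Sox8 and Sox11 kept their direction and an adjusted p under 0.05 in all 12 alternatives. The causes of these shifts were not tested. Scaling moved the median log2 fold change of all genes by less than 0.1. With 3 libraries a group and Sox5 at 85 to 173 counts, the depth limits what can be said of the scarcest SOX genes.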

Other observations

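Genes with an HMG box outside the SOX family were counted from a list of 24 genes, all found and tested. Of these, 7 were called higher and 3 lower, beside 9.43% and 5.58% of all tested genes, with a median log2 fold change of 0.16. With the replicate block 11 were called higher and 4 lower, 15 in all, against 32.1% of all tested genes. Lef1, a Wnt effector related to Tcf7l2, was at 3.58, 3.73 and 3.77 CPM with DMSO and 16.4, 16.9 and 19.5 CPM with ZJU-37. The groups were far apart, with a log2 fold change of 2.25 (SE 0.12, edgeR adjusted p = 2.70e-04), the largest rise of this list. Tcf7l2, which is on the partner list too, had the largest fall of this list, so Lef1 and Tcf7l2 moved in opposite directions. Tcf7 and Tcf7l1, also on this list, were not called (log2 fold changes 0.56 and 0.17, edgeR adjusted p = 0.332 and 0.410). Hmgb2, a chromatin protein of dividing cells with close copies elsewhere in the genome, rose from 120 ± 5.32 to 275 ± 32.1 CPM (log2 fold change 1.20, edgeR adjusted p = 5.21e-04). Wdhd1, a DNA replication protein, rose from 33.0 ± 3.38 to 69.1 ± 7.15 CPM (log2 fold change 1.06, edgeR adjusted p = 0.00121). Both were named after their values were seen. The remaining called genes were Tox3, Hmgb1, Ssrp1 and Ubtf, higher, and Tox and Hbp1, lower, with log2 fold changes from -0.53 to 0.65. Of these, Hmgb1 kept its call in each leave-out, and the others lost it in at least 3 of 6.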
